A study of Mus musculus with 6 samples.

Results

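The genes described here are the interleukins and interleukin receptors of the mouse spinal cord 3 days after a contusion injury at T10, in which the cord is struck bluntly. Members were the genes of the deposited table whose symbol begins with Il and a digit and whose mean over the 6 libraries was 10 estimated counts or more. Of 37475 genes in the table, 75 had such a symbol and 60 reached that mean. By role they were 19 ligands, 38 receptor chains, 2 secreted inhibitors (Il1rn and Il18bp) and 1 antisense transcript, Il1bos. The libraries came from wild-type mice that received daily intraperitoneal injections after injury, of phosphate-buffered saline (PBS) in 3 biological replicates and of syringin at 50 mg/kg in the other 3. Syringin is a plant phenylpropanoid glucoside. Polyadenylated RNA of the cord was sequenced; no source used here gives the strain, age or sex of the mice or the length of cord taken. No uninjured cord was analysed here, so the values compare 2 groups of injured animals.

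Interleukins are secreted or released proteins through which immune cells, glia and vessel cells signal to each other. Receptors of the type I and type II families are pairs of chains, 1 specific and 1 often shared, that act through Janus kinases (JAK) and STAT transcription factors. Signalling receptors of the interleukin-1 (IL-1) family act through a cytoplasmic TIR domain and the adaptor MyD88, and those for IL-1, IL-33 and IL-36 share the chain Il1rap. In the injured cord, microglia and infiltrating myeloid cells are known sources of IL-1 beta, and oligodendrocytes and astrocytes are known sources of the nuclear alarmin IL-33.

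The deposited counts summed to between 65579117 and 78843034 per library. Values are CPM, counts scaled to a library of 1000000 after normalisation by the trimmed mean of M-values. Differences are log2 fold changes of syringin over PBS with ± 1 standard error (SE, 3 libraries per group). Adjusted p-values come from the quasi-likelihood test of edgeR, adjusted by Benjamini-Hochberg over the 22114 genes tested, and a gene is said to have risen or fallen when this p was under 0.05. A count of 4 was more frequent than its neighbours (1.51 times the average for 3 and 5), so counting error may be larger than the counts imply. All listed markers of neurons (6), astrocytes (6) and oligodendrocytes (5) were detected and tested. Markers of sensory ganglion neurons, which lie outside the cord, summed to 325 and 257 CPM in PBS library 1 and syringin library 1 and to 123 CPM in syringin library 3. In PBS libraries 2 and 3 and syringin library 2 they summed to 53.6, 58.0 and 27.1 CPM. Most of these lower sums was Prph (28.4, 44.4 and 18.4 CPM) and Calca (21.8, 10.1 and 6.84 CPM), while Scn10a had 0.22, 0 and 0 CPM. Without PBS library 3 edgeR passed none of the 22804 genes it then tested (3449 at an unadjusted p under 0.05), so each edgeR call below is lost without that library. DESeq2 without that library passed 457 genes as higher and 858 as lower, and limma-voom passed none (3532 at an unadjusted p under 0.05).

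Of the 60 members 59 could be tested, and 4 rose: the ligand Il33 and the receptor chains Il4ra, Il7r and Il1rap. Among the ligands 1 of 19 rose and none fell, and among the receptor chains 3 of 38 rose and none fell. Over all genes tested 5.01% passed, 1.62% as higher and 3.39% as lower. These were 359 and 749 genes, and 482 and 623 when libraries were corrected for the length and GC content of transcripts. At an unadjusted p under 0.05, 13 members were higher and 2 lower (Il34 and Il1rapl1), beside 11.5% and 12.1% of all genes tested (23.6% in either direction). DESeq2 passed 9 members as higher and 1, Il1rapl1, as lower, beside 6.64% and 9.37% of the genes it tested. Without PBS library 3 DESeq2 passed 6 members, the 4 that rose together with Il6 and Il1rn. The median log2 fold change was 0.39 over the ligands and 0.15 over the receptor chains, beside 0.01 over all genes tested. The median of the ligands ran from -0.06 with a filter of at least 1 CPM in 3 libraries to 0.44 without syringin library 2. That filter kept 13 of the 19 ligands, so its median is over fewer genes. In 9 members the 3 syringin libraries lay above the 3 PBS libraries and in 5 below them, beside 14.7% and 15.3% of all genes tested. The antisense transcript Il1bos was too low to be tested.

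**Figure D1:**
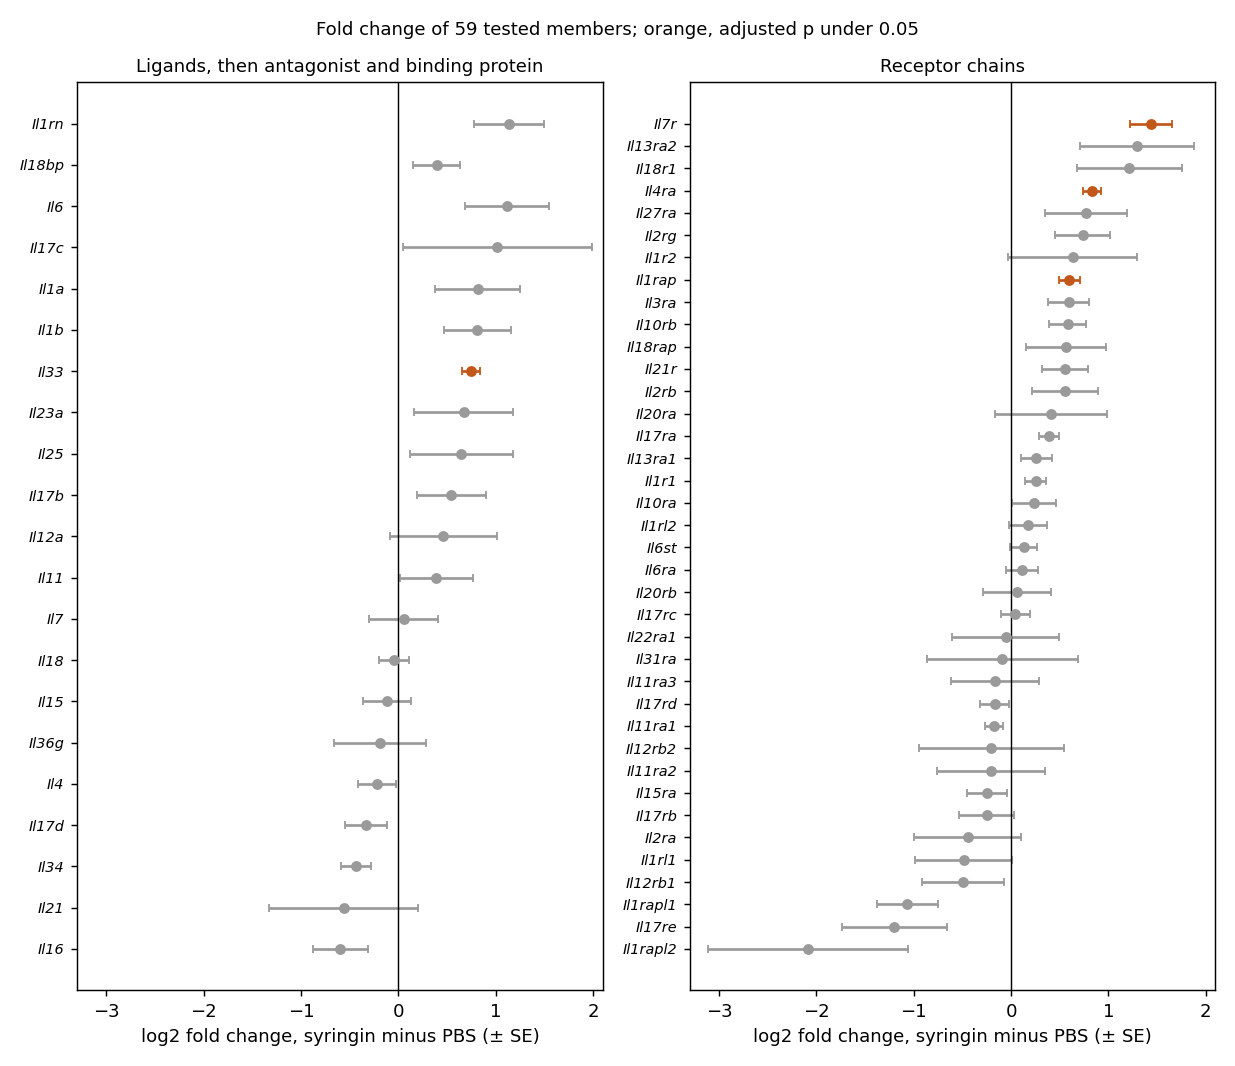
Log2 fold change (x axis, syringin minus PBS, ± SE) of the 59 tested members, with ligands and the 2 inhibitors on the left and receptor chains on the right; orange points passed an adjusted p of 0.05. Il33, Il4ra, Il7r and Il1rap stand at 0.75, 0.83, 1.43 and 0.60. The widest error bar belongs to Il1rapl2, a gene of few counts. Il31ra and Il1r2, with means of 211 and 740 counts, also have wide bars.

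Levels of different genes were compared per transcript length, as FPKM. Il33 had the highest level of the 60 members in both groups, 73.4 ± 4.49 FPKM with PBS and 121 ± 8.36 with syringin (mean ± SD, n = 3). The signal-transducing chain Il6st was next with PBS, at 24.1 ± 2.11 FPKM, followed by Il4ra at 15.4 ± 1.24. Many members were scarce: 30 had a mean below 1 FPKM with PBS and 28 with syringin, while 5 and 9 were above 10 FPKM. The members just above the mean of 10 counts were Il1bos at 10.8 and Il21 and Il17c at 11.0. Just below it lay Il27 and Il4i1 at 9.67 and Il24 at 9.5. Il10, the main anti-inflammatory interleukin, was among the 15 genes left out. It had counts of 11, 0 and 9 in the PBS libraries and 0 in the 3 syringin libraries. A count of 0 allows up to 3 counts from counting error, and more if that error is larger than the counts imply. Il13, Il22 and Il12b had means of 0.83, 0.67 and 1.33 counts.

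**Figure D2:**
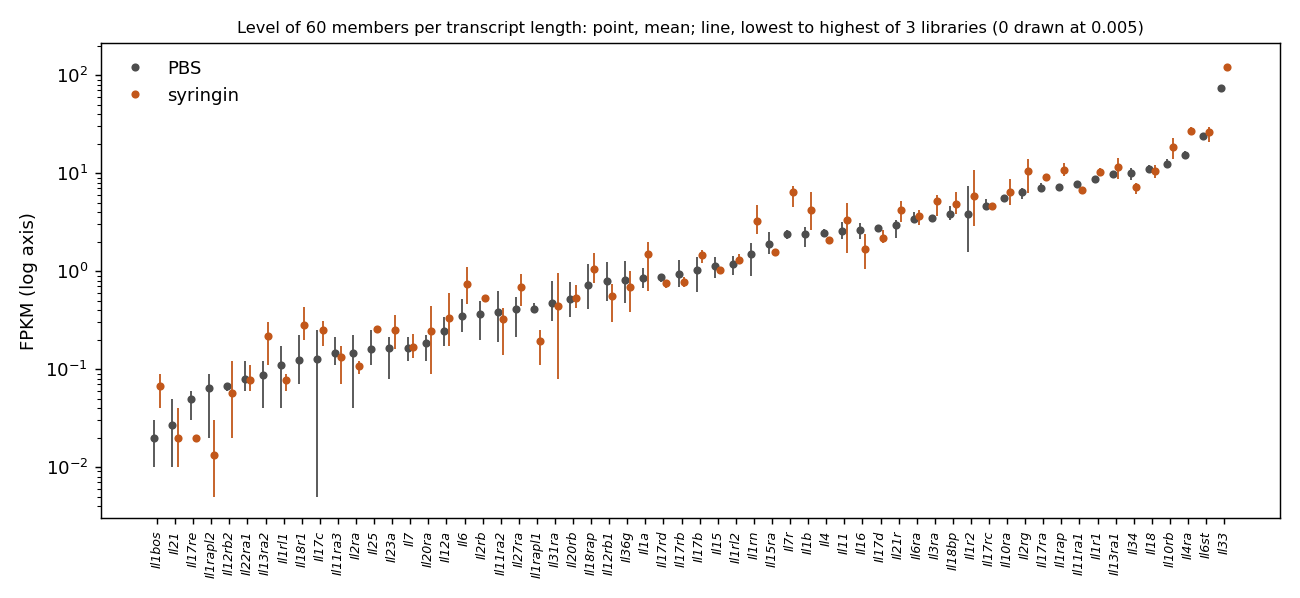
Level of the 60 members in FPKM (log y axis) in order of their PBS mean; points are group means, grey for PBS and orange for syringin, and lines span the 3 libraries of a group. Il33 lies apart at the right end, at 73.4 and 121 FPKM, and 30 members have a PBS mean below 1 FPKM.

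Il33 rose. IL-33 is stored in the nucleus and released when a cell is damaged, and it acts on the receptor ST2 (Il1rl1) with Il1rap as partner. In PBS libraries 1 to 3 Il33 had 242, 216 and 227 CPM, and in syringin libraries 1 to 3 it had 390.1, 359.5 and 399 CPM. The groups were far apart beside their spread, 228 ± 13.4 against 383 ± 20.9 CPM (mean ± SD), a change of 0.75 ± 0.09 (adjusted p = 0.0114, 1.68-fold). The deposited table places Il33 (ENSMUSG00000024810) on the plus strand of chromosome 19, 29902514 to 29938118, in a build that is uncertain, since few genes of the table start where the GRCm38 annotation places them. Of the astrocyte markers 1 of 6 fell and none rose, and their sum was 7066 to 8585 CPM with PBS and 4718 to 6542 CPM with syringin. No oligodendrocyte marker of 5 passed, at 18210 to 19781 CPM and 17139 to 23666 CPM, and 1 of 4 endothelial markers rose, at 336 to 388 CPM and 437 to 494 CPM. In bulk tissue, more cells of a type and more RNA per cell cannot be told apart, and the part of these cell types in the change of Il33 was not tested. The Il33 call was also lost without PBS library 2 (adjusted p = 0.0503), and over all settings its adjusted p ran from 3.62e-08 to 0.0959.

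The other IL-1 family ligands did not pass. Il1b, the main secreted IL-1, had 3.64, 5.54 and 5.76 CPM in the PBS libraries and 7.14, 5.64 and 13.4 CPM in the syringin libraries (0.81 ± 0.34, adjusted p = 0.2002). Syringin library 2 lay within the PBS range and library 3 had the highest value, without which the difference was 0.35. Il1a, the cell-associated form, had 1.72, 1.44 and 2.32 CPM against 1.33, 4.35 and 3.97 CPM, with syringin library 1 below the 3 PBS libraries (0.81 ± 0.44, adjusted p = 0.309); without that library Il1a passed. Il18, which is processed like IL-1 beta, was little changed, at 12.3 ± 0.88 and 11.9 ± 1.91 CPM (-0.05 ± 0.15, adjusted p = 0.885). Il36g had 1.43 ± 0.73 and 1.26 ± 0.58 CPM. The antisense transcript Il1bos overlaps Il1b on the other strand with 3 to 21 counts per library, and no source used here says whether counting used strand.

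Il1rn encodes the IL-1 receptor antagonist, which occupies the receptor without signalling. It had 5.28, 9.81 and 11.6 CPM in the PBS libraries and 14.8, 14.8 and 29.2 CPM in the syringin libraries. The groups did not overlap, but the spread within each was wide, and the change of 1.14 ± 0.36 missed the threshold in edgeR (adjusted p = 0.108, range over the other settings 0.00328 to 0.264); DESeq2 passed it. Without syringin library 3 the change was 0.73. Il18bp, which binds and neutralises IL-18, had 15.1, 11.1 and 10.8 CPM against 12.3, 21.8 and 14.4 CPM (0.39 ± 0.24, adjusted p = 0.3697). Il18bp overlaps Numa1 on the other strand, and without knowledge of the strand setting reads of the shared stretch cannot be told apart. Counted together, 15 members overlap another gene with a mean of 10 counts or more, among them Il18, Il34, Il1r1 and Il1r2. Il1r1 and Il1r2 overlap such a gene on their own strand.

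Among ligands of the IL-6 family, which signal through Il6st, Il6 had 0.755, 0.64 and 1.38 CPM with PBS and 1.73, 1.28 and 3.00 CPM with syringin. Syringin library 2 lay below PBS library 3, and the change of 1.12 ± 0.43 did not pass (adjusted p = 0.167); without syringin library 3 it was 0.70. Il11, a cytokine of stromal and injured cells, had 7.07, 5.48 and 4.79 CPM against 10.9, 3.59 and 8.21 CPM, so that the syringin group held both the highest and the lowest value (0.39 ± 0.37, adjusted p = 0.584). Of 2 further ligands, Il34, a neuronal ligand of the colony-stimulating factor 1 receptor that microglia depend on, had 17.9, 23.9 and 21.6 CPM with PBS and 16.1, 13.3 and 17.4 CPM with syringin. Its groups did not overlap, and the change of -0.44 ± 0.15 did not pass (adjusted p = 0.139). Il16, a chemoattractant for CD4+ cells whose precursor is also made in neurons, had 18.1, 26.1 and 22.1 CPM against 13.9, 20.8 and 9.07 CPM (-0.60 ± 0.29, adjusted p = 0.255). In the same libraries 2 of 6 neuron markers fell and none rose. The neuron markers summed to 1265 to 1635 CPM in the PBS group and 632 to 1121 CPM in the syringin group. Of 6 homeostatic microglia markers none passed and all 6 had negative fold changes. The microglia markers summed to 276 to 359 CPM with PBS and 195 to 286 CPM with syringin. The part of these cells in the values of Il34 and Il16 was not tested.

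The remaining 10 ligands were low and none passed, with changes from -0.56 for Il21 to 1.02 for Il17c. They included the IL-12 family subunits Il12a and Il23a (0.46 ± 0.55 and 0.67 ± 0.51), 4 IL-17 family ligands, and Il7 and Il15, which sustain lymphocytes (0.05 ± 0.36 and -0.12 ± 0.25). Il4, the defining cytokine of type 2 responses, had a mean of 213 counts, at 2.93, 3.31 and 3.52 CPM with PBS and 2.71, 2.90 and 2.78 CPM with syringin (-0.22 ± 0.19, adjusted p = 0.555). Its deposited span is 15688 bases, against 6206 bases in RefSeq (GRCm38.p6), and it ends 1014 bases from Kif3a, an opposite-strand gene with a mean of 4273 counts. Whether reads counted for Il4 belong to its coding transcript was not tested.

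Il4ra and Il7r rose among receptor chains of the common gamma chain family. Il4ra is the signalling chain of both IL-4 receptors, with Il2rg in the type I and Il13ra1 in the type II form, and it also serves IL-13. It had 107, 91.6 and 99.3 CPM in the PBS libraries and 188, 177 and 165 CPM in the syringin libraries. The lowest syringin value was well above the highest PBS value, and the change was 0.83 ± 0.09 (adjusted p = 0.0114, 1.78-fold). Il4ra (ENSMUSG00000030748) lies on chromosome 7, 125151292 to 125178646, in the deposited table. Without each of the libraries other than PBS library 3 in turn, Il4ra passed, and over all settings its adjusted p ran from 1.17e-08 to 0.0959.

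Il7r encodes the chain that binds IL-7 with Il2rg and the epithelial cytokine TSLP with Crlf2. It had 13.1, 10.7 and 12.6 CPM with PBS and 22.2, 38.8 and 37.1 CPM with syringin, the largest change among the 4 risen members, at 1.43 ± 0.21 (adjusted p = 0.0188, 2.70-fold). Syringin library 1 was nearer to the PBS group than libraries 2 and 3 were. The call was also lost without PBS library 2 (adjusted p = 0.072) and without syringin library 3 (0.0624), with a range over all settings of 4.44e-09 to 0.124. In the deposited table Il7r (ENSMUSG00000003882) lies on chromosome 15, 9505874 to 9530262. Il7r is best known in T cells. Of 6 T cell markers none passed, all 6 had positive fold changes, none was at 0 throughout, and they summed to 4.82, 2.73 and 8.24 CPM in the PBS and 5.31, 12.0 and 11.7 CPM in the syringin libraries. Of 8 markers of infiltrating monocytes and macrophages 3 rose (F10, Clec4d and Thbs1) and none fell. Ccr2, Ly6c2, Chil3, Ms4a4c and Fn1 did not pass. The 8 summed to 1711, 1786 and 2308 CPM against 2505, 3827 and 2885 CPM, and most of each sum was Fn1 and Thbs1. Fn1 had 934, 1236 and 1465 CPM against 1144, 1802.5 and 1407 CPM. Thbs1 had 578, 417 and 722 CPM against 978, 1754 and 1262 CPM. Mast cell markers, 5 in number, were too low to test and summed to at most 0.59 CPM. The part of these cells in the values of Il4ra, Il7r and their partners was not tested.

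Of the partner chains with Il symbols none passed; Crlf2 is given with the signalling genes. Il2rg, the common gamma chain, had 13.9, 17.8 and 18.2 CPM against 16.1, 37.2 and 29.9 CPM (0.74 ± 0.28, adjusted p = 0.166), with syringin library 1 inside the PBS range. Without syringin library 1 it passed at 1.01 (adjusted p = 0.0153, range over all settings 0.0153 to 0.409). With the 6 libraries kept, Il2rg passed in DESeq2 (adjusted p = 0.0313) and in edgeR with a sensory ganglion covariate (0.0392). Il13ra1 had 37.3, 40.2 and 40.9 CPM against 55.8, 50.4 and 35.4 CPM (0.26 ± 0.16, adjusted p = 0.382), and here syringin library 3 was the lowest of the 6 libraries. Il13ra2, a decoy that binds IL-13, had 8 to 21 counts with PBS and 22 to 49 with syringin (1.29 ± 0.59, adjusted p = 0.233). Il21r had a value of 0.56 ± 0.24 (adjusted p = 0.205), and Il2rb, Il15ra and Il2ra of 0.55 ± 0.34, -0.25 ± 0.21 and -0.45 ± 0.55. Il3ra, which pairs with the common beta chain, was at 10.6, 12.1 and 11.0 CPM against 11.5, 19.97 and 19.5 CPM (0.59 ± 0.21, adjusted p = 0.148). Il3ra passed in DESeq2, without syringin library 1, and without PBS library 1 and syringin library 1 together.

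**Figure D3:**
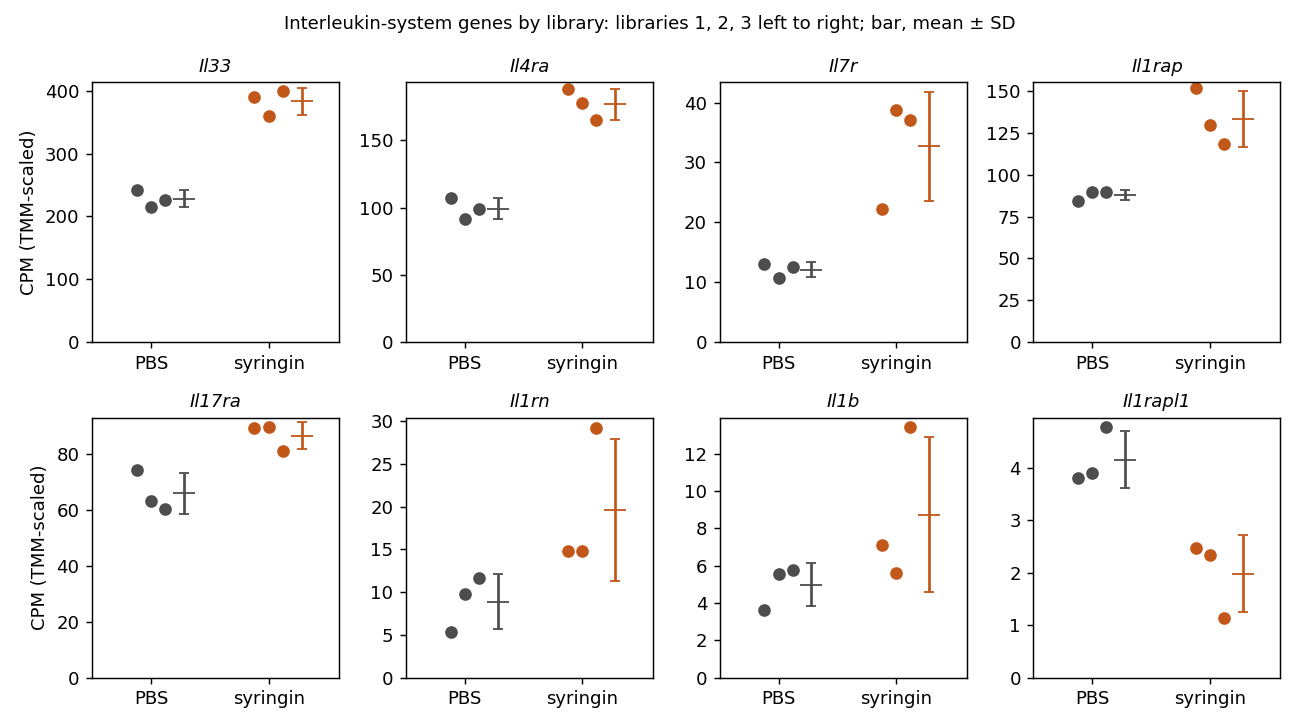
CPM of 8 members by library (y axes from 0, libraries 1 to 3 left to right in each group, bars mean ± SD). In the 4 members that rose the groups are separated, from Il7r at 10.7 to 13.1 against 22.2 to 38.8 CPM to Il1rap at 84.35 to 89.8 against 118 to 152 CPM, whereas Il1b overlaps between groups.

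Il1rap rose among the 9 members of the IL-1 receptor family, none of which fell. It encodes the accessory chain that IL-1, IL-33 and IL-36 receptors share and without which they do not signal. Its level was 84.35, 89.6 and 89.8 CPM in the PBS libraries and 152, 129.6 and 118 CPM in the syringin libraries (0.60 ± 0.11, adjusted p = 0.0251). The PBS values were close together and the syringin values spread over a wider range above them. The call was lost under 7 of 21 settings, against 3, 2 and 4 for Il33, Il4ra and Il7r. Beside PBS library 3, it was lost without PBS library 1 (adjusted p = 0.0805), PBS library 2 (0.0864) and syringin library 2 (0.0554), without PBS library 1 and syringin library 1 together (0.0514), and with limma on log2(FPKM + 0.1) (0.0505), and its range over all settings was 0.00028 to 0.142. In the deposited table Il1rap (ENSMUSG00000022514) lies on chromosome 16, 26400454 to 26548867. Il1rap overlaps Gm20319 on the other strand, and without knowledge of the strand setting reads of the shared stretch cannot be told apart.

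The ligand-binding chains beside it lie in a cluster of 6 genes on chromosome 1, from 40113239 to 40590865 in the deposited table, in the order Il1r2, Il1r1, Il1rl2, Il1rl1, Il18r1 and Il18rap. None of the 6 passed. Il1r1, the signalling receptor of IL-1, had 56.2, 64.3 and 57.3 CPM against 65.1, 79.9 and 67.2 CPM, groups that touched without overlapping (0.25 ± 0.11, adjusted p = 0.203). Il1r2, a decoy receptor without a signalling domain, had 15.04, 5.23 and 3.22 CPM against 22.0, 8.42 and 6.05 CPM (0.63 ± 0.66, adjusted p = 0.627). Library 1 had the highest value in each group, and without syringin library 1 the difference was -0.12. Il1rl1, the receptor of IL-33, was scarce, with 25, 60 and 89 counts with PBS and 48, 32 and 48 with syringin (-0.49 ± 0.50, adjusted p = 0.618). Il18r1 and Il18rap, the 2 chains of the IL-18 receptor, had values of 1.22 ± 0.54 and 0.56 ± 0.41, and Il1rl2, the IL-36 receptor, of 0.17 ± 0.20. Neutrophil markers, 1 of 7 higher, summed to 93.0, 125 and 79.5 CPM in the PBS and 162, 134 and 63.9 CPM in the syringin libraries.

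The X-linked Il1rapl1 and Il1rapl2 belong to the IL-1 receptor family by sequence but are known as neuronal synapse-organising proteins. Il1rapl1 had 3.80, 3.91 and 4.78 CPM with PBS and 2.48, 2.33 and 1.15 CPM with syringin. The groups did not overlap, and the change of -1.07 ± 0.31 missed the threshold in edgeR (adjusted p = 0.0937, range over the other settings 0.0101 to 0.303) and passed in DESeq2. Il1rapl2 had 9, 32 and 30 counts against 14, 0 and 4 (-2.08 ± 1.02, adjusted p = 0.269). Neuron markers were lower in the same libraries, with the sums given beside Il34, and their part was not tested.

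RefSeq lists promoter windows (250 bases before to 50 after a transcript start, GRCm38.p6) for 46 of the 60 members. They are shown for the 4 risen genes because these passed together. Each window was searched on both strands for 7 short motifs. These were the STAT motif (TTC and GAA with any 3 bases between), the STAT6 motif (TTC and GAA with any 4 bases between), the NF-kB motif (GGG and TTTCC with any 2 bases between), the IRF motif (GAAA and GAAA with any 2 bases between), AP-1 TGANTCA, CRE TGACGTCA and PU.1 AGAGGAAGT. They occur in 8.30%, 6.95%, 1.63%, 3.44%, 7.81%, 1.79% and 1.00% of all 32851 windows of this length. The 46 members had 60 windows, those of the 4 risen genes included. Of these 60 windows, 8 held the STAT, 12 the STAT6, 6 the NF-kB and 2 the IRF motif, the 4 motifs matched below. Capitals mark a match, and the windows run 5′ to 3′ on the strand of the gene, at chr7:125552021-125552320 (plus strand, Il4ra), chr15:9529827-9530126 (minus strand, Il7r), chr16:26581455-26581754 (plus strand, Il1rap) and chr19:29924863-29925162 (plus strand, Il33):
Il4ra: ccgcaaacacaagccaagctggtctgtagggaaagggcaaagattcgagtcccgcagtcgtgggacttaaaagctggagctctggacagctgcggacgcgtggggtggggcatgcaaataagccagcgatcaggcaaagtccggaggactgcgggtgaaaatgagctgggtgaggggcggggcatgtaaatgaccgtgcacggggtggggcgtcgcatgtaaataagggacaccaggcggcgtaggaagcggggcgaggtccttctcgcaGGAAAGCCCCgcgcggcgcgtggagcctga
Il7r: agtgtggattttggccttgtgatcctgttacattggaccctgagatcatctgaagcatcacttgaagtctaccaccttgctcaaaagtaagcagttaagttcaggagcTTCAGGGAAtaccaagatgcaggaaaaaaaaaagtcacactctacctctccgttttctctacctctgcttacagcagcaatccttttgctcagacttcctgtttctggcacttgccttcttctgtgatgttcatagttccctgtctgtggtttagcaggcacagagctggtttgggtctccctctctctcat
Il1rap: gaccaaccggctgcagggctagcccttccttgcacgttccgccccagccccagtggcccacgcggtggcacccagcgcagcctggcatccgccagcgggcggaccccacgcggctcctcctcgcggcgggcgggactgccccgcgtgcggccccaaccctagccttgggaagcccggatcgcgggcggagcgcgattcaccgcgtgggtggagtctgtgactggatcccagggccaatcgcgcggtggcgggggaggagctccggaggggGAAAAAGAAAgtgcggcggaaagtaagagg
Il33: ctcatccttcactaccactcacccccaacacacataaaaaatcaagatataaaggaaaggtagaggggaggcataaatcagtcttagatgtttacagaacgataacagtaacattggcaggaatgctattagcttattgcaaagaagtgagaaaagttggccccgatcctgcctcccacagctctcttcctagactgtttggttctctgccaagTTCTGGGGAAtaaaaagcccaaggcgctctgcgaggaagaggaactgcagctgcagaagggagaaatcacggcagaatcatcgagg
Each of the 4 windows held 1 match, to a different motif. Il4ra had the NF-kB motif on the other strand from base 21 after the start, Il7r the STAT motif from base -142, Il1rap the IRF motif from base 21 after it and Il33 the STAT6 motif from base -36 (negative positions lie before the start). A second Il33 window, for a start further downstream, held no match. These matches describe letters in the window, and binding was not measured.

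None of the 7 receptor chains of the IL-6 family passed. Il6st (gp130), the signalling chain shared by the family, had 259, 309.8 and 294 CPM with PBS and 346, 347 and 252 CPM with syringin (0.13 ± 0.14, adjusted p = 0.639), with the highest and the lowest of the 6 values both in the syringin group. Il6ra, the specific IL-6 chain, had 37.5, 28.9 and 28.9 CPM against 34.1, 40.9 and 27.9 CPM (0.11 ± 0.17, adjusted p = 0.746). Il11ra1 had 34.6, 39.5 and 37.0 CPM against 31.5, 33.8 and 33.2 CPM, groups that did not overlap (-0.17 ± 0.09, adjusted p = 0.305). Il11ra1 overlaps 6 other genes and has near-identical copies in Il11ra2 and Il11ra3, so its count and theirs (20 to 90 per library) are uncertain. Il27ra had a value of 0.77 ± 0.42 (adjusted p = 0.317).

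None of the 5 IL-17 receptor chains passed. Il17ra, the chain they share, had 74.3, 63.0 and 60.4 CPM with PBS and 89.1, 89.4 and 81.1 CPM with syringin. Its groups did not overlap, and the change of 0.39 ± 0.10 was the nearest to the threshold of the members that missed it (adjusted p = 0.0701). Il17ra passed in DESeq2 (adjusted p = 0.0314) and with the length and GC correction (0.0355), with a range over all settings of 0.0295 to 0.27. Il17rc, its partner for IL-17A, differed by less than the spread, at 13.3 ± 2.11 and 13.7 ± 0.78 CPM. Il17re, with 14 to 30 counts against 9 to 12, had a value of -1.20 ± 0.54 (adjusted p = 0.228).

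Of 5 receptor chains of the IL-10 family none passed. Il10rb, shared by the receptors of IL-10 and IL-22, had 45.9, 57.2 and 50.0 CPM against 56.3, 96.5 and 76.3 CPM, with syringin library 1 just below PBS library 2 (0.58 ± 0.19, adjusted p = 0.114). Without syringin library 1 it passed at 0.76 (adjusted p = 0.0205, range over all settings 0.0205 to 0.332). With the 6 libraries kept, Il10rb passed in DESeq2 (adjusted p = 0.0208) and in edgeR with a sensory ganglion covariate (0.0233). Il10ra, the IL-10-specific chain of myeloid and lymphoid cells, had 21.7, 19.0 and 22.2 CPM against 17.6, 34.2 and 22.3 CPM (0.24 ± 0.23, adjusted p = 0.588). The IL-12 receptor chains Il12rb1 and Il12rb2 had values of -0.49 ± 0.42 and -0.20 ± 0.75; Il12rb2 overlaps Serbp1 on the other strand.

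Ratios between members that act together were taken within each library from FPKM, for 8 pairs chosen after the values were seen; 3 libraries against 3 cannot give an exact two-sided permutation p below 0.1. The antagonist Il1rn relative to Il1b was 0.5, 0.608 and 0.695 with PBS and 0.714, 0.909 and 0.749 with syringin. Il7r relative to Il2rg was 0.481, 0.306 and 0.353 against 0.707, 0.533 and 0.636. Both ratios were higher in each syringin library than in each PBS library. So were Il4ra relative to Il13ra1, at 1.41 to 1.78 against 2.08 to 2.88, and Il1rap relative to Il1r1, at 0.780 to 0.878 against 0.908 to 1.31. For these 4 pairs the exact permutation p was 0.1, the smallest possible, and 0.2 after adjustment over the 8 pairs. Il7r, Il4ra and Il1rap are risen members set over partners that did not pass. Their ratios therefore restate in part the calls from the same libraries. Ratios of other genes were not taken, and for single genes the groups were separated in 30.0% of all genes tested. Il4ra relative to Il2rg, Il1r2 to Il1r1, Il18bp to Il18 and Il6ra to Il6st overlapped between the groups, with exact permutation p-values of 0.8, 0.5, 0.3 and 1.

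PBS library 1 and syringin library 1, which had the highest sums of sensory ganglion markers, also had the 2 highest values in 7 of the 59 tested members (11.9%). The same order was seen in 9.13% of all genes tested, so the share of members was near the background. The 7 were Il31ra, Il1r2, Il18rap, Il20rb, Il12rb1, Il22ra1 and Il7. Il31ra, the receptor of the itch cytokine IL-31 and known in sensory neurons, had 4.93, 1.90 and 1.95 CPM with PBS and 5.86, 0.50 and 1.87 CPM with syringin (-0.09 ± 0.77, adjusted p = 0.962). Il18rap had 8.53, 3.02 and 4.06 CPM against 10.9, 6.42 and 5.70 CPM. Ganglion markers summed to more in syringin library 3 than in syringin library 2. Il31ra, Il20rb, Il22ra1 and Il7 were also higher in syringin library 3 than in syringin library 2, and Il1r2, Il18rap and Il12rb1 were lower. None of the 4 risen members had the order.

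**Figure D4:**
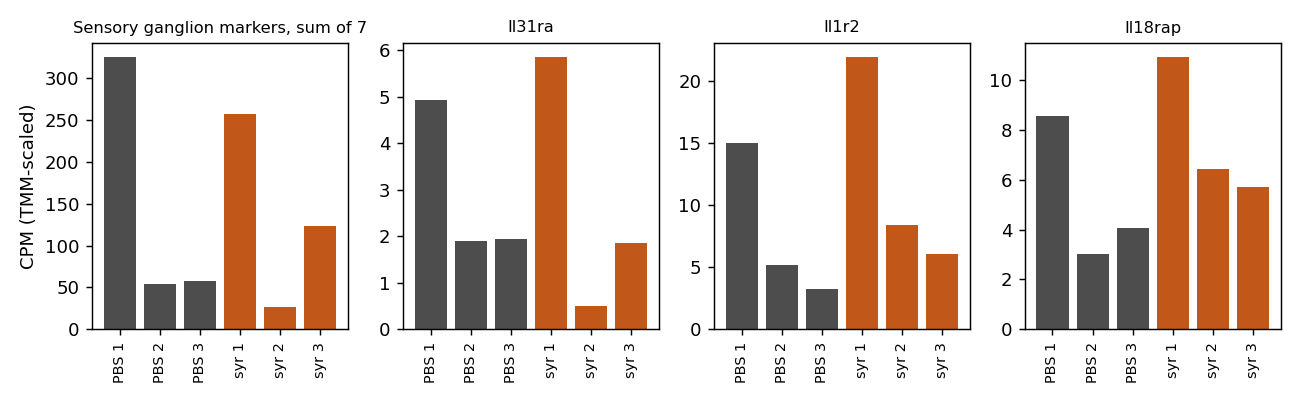
CPM (y axes from 0) in each library of the summed sensory ganglion markers and of Il31ra, Il1r2 and Il18rap; grey bars are PBS and orange bars syringin (syr) libraries. PBS library 1 and syringin library 1 are highest in each panel, and Il31ra ranges from 0.50 to 5.86 CPM. The genes shown were taken from the 7 members with this order, so the order in their panels was fixed by that choice.

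Downstream of and beside these receptors, 55 genes of interleukin signalling were tested; 4 rose, none fell and 51 did not pass, beside 1.62% higher and 3.39% lower over all genes tested. The median over the 55 was 0.22. At an unadjusted p under 0.05, 16 of the 55, the 4 included, were higher and 3 lower, beside 11.5% and 12.1% of all genes. DESeq2 passed 10 as higher and 1, the receptor gene Cntfr, as lower, beside 6.64% and 9.37% of the genes it tested. Of the 4 that rose, 3 were further receptor chains. Csf2rb, the common beta chain that serves IL-3, IL-5 and GM-CSF, rose by 0.85 ± 0.17 (adjusted p = 0.0353). Csf2rb2, a mouse beta chain that serves IL-3 alone, rose by 0.77 ± 0.13 (adjusted p = 0.0232). Csf2rb and Csf2rb2 are near-identical copies whose reads may have been split. Crlf2, the TSLP partner of Il7r, rose by 0.50 ± 0.10 (adjusted p = 0.04003), while its ligand Tslp had a mean of 12.7 counts. Myd88, the adaptor of IL-1 family receptors, rose by 0.46 ± 0.11 (adjusted p = 0.0493). Each of these 4 calls was lost when PBS library 1, 2 or 3 or syringin library 2 or 3 was left out. Myd88 also missed the threshold under 6 settings that kept the 6 libraries, limma-voom among them (adjusted p = 0.0577).

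No kinase, STAT or inhibitor of the pathway passed. Jak1, Jak2, Jak3 and Tyk2 had values of -0.04 ± 0.11, 0.16 ± 0.09, 0.30 ± 0.16 and 0.19 ± 0.11, of which Jak3 passed without syringin library 1. Stat6, the transcription factor of the IL-4 receptor, had 55.5 ± 3.21 and 74.6 ± 14.8 CPM (0.43 ± 0.14, adjusted p = 0.118) and passed in DESeq2, while Stat3, the main factor of the IL-6 family, had a value of 0.17 ± 0.13 (adjusted p = 0.482). Socs3, a feedback inhibitor induced by STAT3, had 72.5, 72.7 and 81.6 CPM with PBS and 122, 97.8 and 165 CPM with syringin (0.76 ± 0.18) and lay at the threshold with adjusted p = 0.0504. Socs3 passed in DESeq2 (adjusted p = 0.000778, range over all settings 0.000778 to 0.188) and with 6 other settings that kept the 6 libraries. Among the 10 genes of the gp130 family outside the Il symbols, Osmr and Lif had values of 0.32 ± 0.13 and 0.88 ± 0.45 and did not pass. The value of Lif came with syringin library 3, at 26.1 CPM against 6.20 to 8.97 CPM in the other 5 libraries, and without that library it was 0.09.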

How the data were processed

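RNA sequencing measured gene expression in injured cord. Per the labels' protocols, libraries came from a stranded TruSeq kit for polyadenylated RNA; the submitters' processing notes name the aligner HISAT2, StringTie, and GRCm38 and mm10. The authors deposited 1 table with an estimated count per gene and library (whole numbers, so rounding changed none) and an FPKM. No source used here gives the strand setting or the handling of shared reads. Only 717 of 34804 gene IDs, and 2 of the 60 members, start where the GRCm38 annotation GENCODE M21 starts them, so the build of the deposited coordinates is uncertain.

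Libraries were grouped by labelled treatment. Counts were scaled by TMM, filtered with filterByExpr (minimum count 10, minimum total 15) and fitted with edgeR 4.0.16 (robust quasi-likelihood, treatment the only term, two-sided; R 4.3.3). SE is the size of a log2 fold change divided by the square root of its F statistic. Alternatives were DESeq2 1.42.0, limma-voom (limma 3.58.1), other scalings and filters, no robust estimation, a replicate block and each library left out. After the data were seen, further ones were added: a division of counts by 4, limma on log2(FPKM + 0.1), a sensory ganglion covariate, a length and GC correction, the joint removal of PBS library 1 and syringin library 1, and both other tools with PBS library 3 removed. The edgeR script was tested on simulated data. Members and gene lists were chosen with earlier results of these data known, ratio pairs and motifs after the values were seen, and the roles of Il11ra3 and Il1bos after the table was read. Called members and 24 listed ones are named in full. Python 3.11.15, pandas 2.3.3, scipy 1.17.1 and matplotlib 3.10.9 made the tables and figures.

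The labels call the libraries biological replicates; p-values measure the spread between these 6 libraries.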

Additional observations from a re-analysis of the deposited data

How the results depend on the processing

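In the fit reported, 1 ligand, 3 receptor chains and 4 signalling genes were higher and none was lower. DESeq2 passed 7 receptor chains as higher and 1 as lower, and 10 signalling genes as higher and 1 as lower; over all genes it passed 1171 as higher and 1652 as lower. With the sensory ganglion covariate 7 receptor chains and 8 signalling genes were higher and 1 signalling gene lower, with 1131 and 1435 genes over the whole table. Without PBS library 1 and syringin library 1 together 5 receptor chains were higher, with 421 and 751 genes of the table higher and lower. With limma on log2(FPKM + 0.1), 211 genes of the table were higher and 531 lower. Leaving out each library in turn gave 0 to 2 ligands, 0 to 6 receptor chains and 0 to 8 signalling genes as higher, and among all genes 0 to 813 as higher and 0 to 1131 as lower. Without PBS library 2, Il4ra alone of the members passed. Without PBS library 3 edgeR and limma-voom passed 0 ligands, 0 receptor chains and 0 signalling genes, beside 2, 5 and 7 higher at an unadjusted p under 0.05 in each tool; DESeq2 passed 2 ligands, 3 receptor chains and 4 signalling genes. The cause of these differences was not tested, except that fewer libraries remained in the last settings.

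Replicate numbers are shared by the groups, but nothing in the labels says that a number marks a pair. Deviations from the group means correlated at 0.292, 0.123 and 0.0522 between libraries of the same number. PBS libraries 1 and 2 correlated best with the syringin library of their number, and PBS library 3 with syringin library 2 (0.135). These values do not settle whether the numbers mark pairs. The numbers were not taken as pairs because the labels name none. With the replicate block, 2 ligands (Il33, Il6) and 7 receptor chains (Il10rb, Il17ra, Il1r2, Il1rap, Il21r, Il4ra, Il7r) and the inhibitor Il1rn (adjusted p = 0.0168) were higher, 7 signalling genes higher and 2 lower, and 1062 and 1495 genes of the table higher and lower.

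Of 771 fold changes recomputed for named genes, 677 kept their direction and their side of the threshold, 35 newly passed, 48 no longer passed and 11 changed sign, none of the 11 past the threshold in either fit. Il18 ran from -0.186 to 0.0501 with 1 library left out, and was 0.00911 without PBS library 1 and 0.0266 without PBS library 1 and syringin library 1. Jak1 ran from -0.0977 to 0.0523 with 1 library left out, was 0.0155 without PBS library 1, and was 0.00687 with the length and GC correction. Il1r2 ran from -0.12 to 1.53, Il6ra from -0.0344 to 0.248 and Il10ra from -0.072 to 0.426 with 1 library left out. Il6st was -0.016 without PBS library 1 and syringin library 1, and Il1rl1 was 0.165 with limma-voom without PBS library 3. Low counts limit precision: Il1rapl2, Il17c, Il21, Il12rb2 and Il13ra2 had an SE of 0.59 to 1.02.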
